A study of Mus musculus with 24 samples.

Results

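BAF180 is the product of Pbrm1, a large protein with many bromodomains that belongs to PBAF, one of the forms of the SWI/SNF chromatin remodeling complex. SWI/SNF enzymes use ATP to slide or evict nucleosomes, and PBAF is told apart from the other forms (cBAF and ncBAF) by subunits such as BAF180, ARID2, BRD7 and PHF10, some of which bind modified histones. In muscle precursors, SWI/SNF complexes help the factor MyoD to open chromatin at muscle genes. The comparison described here asks which genes and functions differed in myoblasts depleted of Baf180 when no metal was added to the medium. It rests on 4 of the 24 RNA-seq libraries of the series, chosen by their titles: both replicates of the untreated Baf180 knockdown (KD) line and both replicates of the untreated scrambled control (scr).

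The series holds mouse myoblasts of 4 lines, which carry a scrambled shRNA or an shRNA against Baf180, Baf250a or Brd9, each grown without added metal, with Cu or with Zn, in 2 replicates. The study's methods name the cells as C2C12, an established mouse myoblast line, transduced with lentiviral shRNA and selected with puromycin, whereas the labels call them primary myoblasts with knockdowns made by lipofectamine. If the methods hold for these libraries, all groups share the viral vector and the selection. The methods give 2 independent biological replicates and do not say whether these came from separate transductions or which shRNA each carried, so an effect of the depletion and a standing difference between the Baf180 and scr cells cannot be told apart. In bulk RNA, fewer cells of a kind and less RNA per cell cannot be told apart either.

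The 4 libraries held 16520069 to 23054964 counts, with 21608 to 22818 genes detected. Replicates of the same group correlated across genes at 0.989 (scr) and 0.992 (Baf180 KD). The scr libraries had a higher share of counts in rRNA-linked genes (4.62% and 1.63%) than the Baf180 KD libraries (0.787% and 0.185%), and a lower share in the mitochondrial genome (0.991% and 0.856% against 1.74% and 1.47%). Across 12198 protein-coding genes the log2 fold change followed GC content (Spearman -0.29) and transcript length (0.22), so that the median was -0.18 in the shortest of 4 equal groups of genes and 0.19 in the longest. Counts of called genes in lists of short genes are therefore given also after correction for GC content and length, where they moved.

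The targeted transcript was lower in the KD. Pbrm1 (chr14:31019138-31121592, mm10) was at 64 and 76.2 CPM (counts scaled to the effective library size) in the Baf180 KD libraries and at 140 and 97.7 CPM in the scr libraries. The groups did not overlap, and the difference was 1.69-fold (log2 fold change -0.76 ± 0.16 SE, adjusted p = 0.00274, edgeR quasi-likelihood test). After GC and length correction the log2 fold change of Pbrm1 was -1.25 (adjusted p = 3.11e-06, same test). The log2 fold change was -1.61 ± 0.18 SE in the libraries grown with Cu and -2.03 ± 0.1 SE in those grown with Zn, a gap between conditions that was not tested, and there the scr libraries reached 126 to 227 CPM and the Baf180 KD libraries 42.2 to 63.1 CPM. Pbrm1 was also lower than in the untreated Baf250a KD (-1.57 ± 0.09 SE) and in the untreated Brd9 KD (-1.55 ± 0.11 SE). On the scale set over all 24 libraries, untreated scr held 99.9 to 143 CPM, less than the 197 to 223 CPM of the untreated Baf250a and Brd9 KD libraries, and the untreated Baf180 KD held 65.8 to 75.7 CPM.

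The other PBAF subunits did not move as a block. Phf10, a PHD-finger subunit, fell from 130 and 120 CPM in scr to 85.9 and 93.5 CPM (log2 fold change -0.48 ± 0.11 SE, adjusted p = 0.00414), although the adjusted p became 0.0565 without the first Baf180 KD library. Arid2, the subunit that anchors the PBAF module, rose from 138 and 126 CPM to 187 and 192 CPM (log2 fold change 0.52 ± 0.1 SE, adjusted p = 0.00217), with an adjusted p of 0.053 without the second Baf180 KD library. After GC and length correction the log2 fold change was 0.21 for Arid2 and -0.76 for Phf10. In the Cu libraries Arid2 was at 0.1 and Phf10 at -0.87, and in the Zn libraries at -0.02 and -0.78. Arid2 did not pass the edgeR test with either metal (adjusted p = 0.606 and 0.761). Against the same untreated scr libraries, Arid2 was at 0.33 in the Baf250a KD and 0.31 in the Brd9 KD, and Phf10 at -0.85 and -0.13. Brd7 was at 60 and 58.9 CPM against 70 and 65.8 CPM, a difference that did not pass the test (adjusted p = 0.172). Of the 4 PBAF-specific subunit genes, Pbrm1 included, 3 were called lower and 1 higher after the correction. Among the 13 tested ATPases and shared subunits, 2 rose and 3 fell, so that 38.5% were called, near the 41.0% over all tested genes. Smarca2, which encodes the alternative ATPase BRM, rose from 5.24 and 3.27 CPM to 15.5 and 17 CPM (log2 fold change 1.96 ± 0.22 SE, adjusted p = 3.01e-05). Over the same scr libraries Smarca2 was also higher in the untreated Baf250a KD (2.31) and Brd9 KD (2.01), so its rise was not particular to the Baf180 KD. Smarca4, which encodes the ATPase BRG1, stood at 390 and 385 CPM against 385 and 395 CPM (adjusted p = 0.951). Smarcd1 rose by 0.6 on the log2 scale, and Actl6a (-0.65) and Smarcd3 (-0.44) fell, the last with an adjusted p of 0.0535 and 0.0676 without the first and the second Baf180 KD library. Of 6 tested cBAF-specific subunits 1 fell and none rose, but none was called without either Baf180 KD library. Of 3 ncBAF-specific subunits 1 rose and none fell (Bicral, adjusted p = 0.0442), a call that was lost after GC and length correction (0.107), in DESeq2 (0.129) and without the first scr library or either Baf180 KD library.

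Of 14851 genes tested, 6087 (41.0%) differed at an adjusted p below 0.05, 3217 (21.7%) higher and 2870 (19.3%) lower in the Baf180 KD, and the median over all tested genes was 0.03. After correction for GC content and length 43.0% were called, 2819 genes higher and 3560 lower. Large changes were mostly rises: 1505 called genes were at least 2-fold higher and 620 at least 2-fold lower, and at 8-fold the counts were 273 and 47. The count of called genes fell to 3987 without the first Baf180 KD library and to 3025 without the second. The share of all tested genes whose groups did not overlap was 72.4%, so with 2 libraries a side a lack of overlap alone says little.

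**Figure D1:**
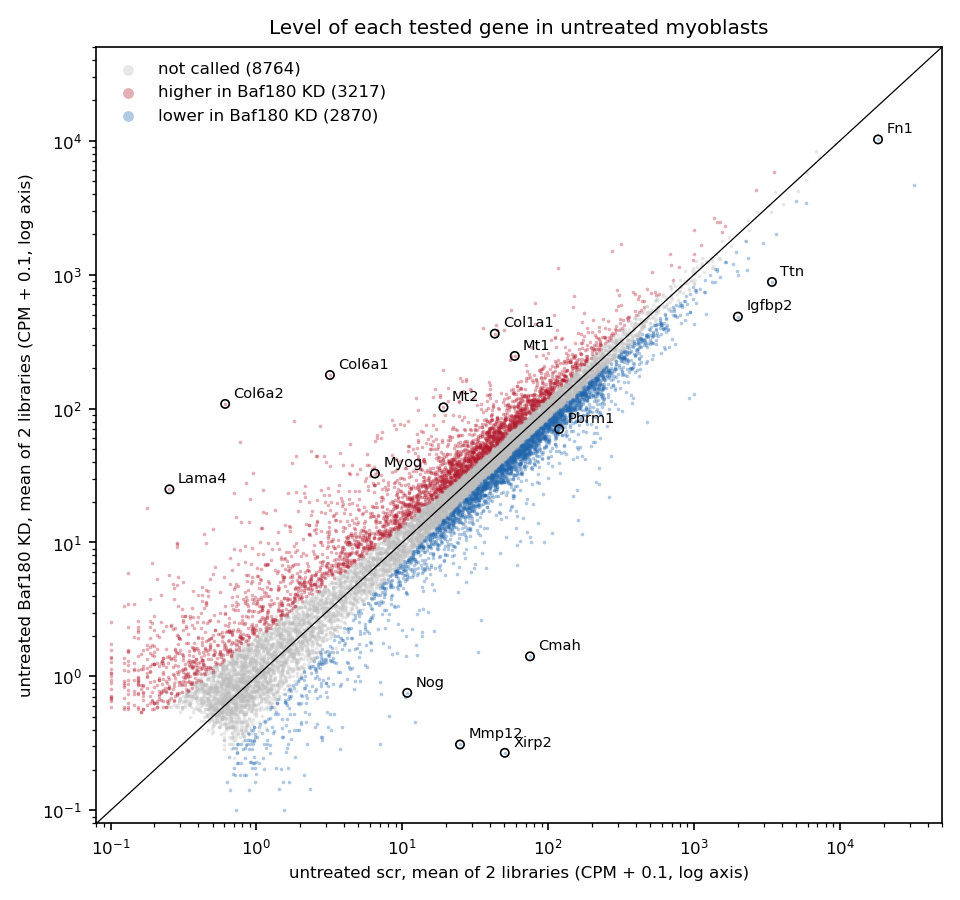
Mean level of the 14851 tested genes in untreated scr (horizontal) and untreated Baf180 KD (vertical), each the mean of 2 libraries in CPM plus 0.1 on log axes, with called genes colored and the line marking equal levels. Pbrm1 lies just below the line, Col6a2 and Lama4 far above it, and Xirp2 and Mmp12 far below it.

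The largest rises included collagen VI and laminin genes. Col6a2, a chain of collagen VI, was at 109 and 107 CPM in the Baf180 KD and at 0.748 and 0.273 CPM in scr, a 225-fold difference (log2 fold change 7.81 ± 0.23 SE, adjusted p = 3.21e-09). Col6a1, which encodes its partner chain and lies beside it (chr10:76708792-76726168, with Col6a2 at chr10:76595762-76623630), was at 183 and 172 CPM against 2.68 and 3.5 CPM (log2 fold change 5.82 ± 0.15 SE, adjusted p = 2.5e-09). The laminin chain gene Lama4 was at 25.5 and 24.2 CPM against 0.125 and 0.182 CPM (log2 fold change 7.25 ± 0.27 SE, adjusted p = 9.93e-09). Col6a2 and Lama4 were close to silent in both scr libraries, where Col6a1 was low but detected, and each was plainly expressed in both Baf180 KD libraries.

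Spon2, which encodes the matrix protein spondin 2, had 3 counts over both scr libraries, and its ratio of 227 carries a 95% counting interval of 77.4 to 1100. The 12 largest rises also took in the adhesion protein gene Svep1 (6.4), the receptor phosphatase gene Ptprf (5.59), the netrin receptor gene Unc5c (5.31) and the glutamate transporter gene Slc1a3 (5.21). Abca1, which exports cholesterol (4.96), the angiopoietin gene Angpt1 (4.87), Pi15 (5.35) and Lix1 (5.14) complete them.

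The largest falls included genes of the muscle cytoskeleton and matrix metalloproteinases. Xirp2, an actin-binding protein of striated muscle (chr2:67446002-67526614), was at 0.131 and 0.207 CPM in the Baf180 KD and at 60.2 and 40.3 CPM in scr, 285-fold lower (log2 fold change -8.16 ± 0.32 SE, adjusted p = 1.1e-08). Its relative Xirp1 fell from 213 and 229 CPM to 25.8 and 28.7 CPM (log2 fold change -3.02 ± 0.12 SE, adjusted p = 9.96e-09), and the muscle kinase gene Alpk3 fell by 3.23 on the log2 scale. The macrophage elastase gene Mmp12 was at 0.131 and 0.29 CPM against 28 and 21.5 CPM (log2 fold change -6.82 ± 0.3 SE, adjusted p = 2.41e-08) and the stromelysin gene Mmp10 at 1.48 and 1.37 CPM against 30.4 and 35 CPM (log2 fold change -4.52 ± 0.18 SE, adjusted p = 1.37e-08). Thus 2 matrix metalloproteinases were among the 12 largest falls while collagen VI genes were among the rises.

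The largest falls also held Cmah, which hydroxylates sialic acid, from 83 and 66.8 CPM to 1.13 and 1.49 CPM, and St8sia2, which builds polysialic acid, from 10 and 10.5 CPM to 0.697 and 0.498 CPM. Nog, which encodes the BMP antagonist noggin, fell from 10.9 and 10.5 CPM to 0.479 and 0.83 CPM (log2 fold change -4.01 ± 0.28 SE, adjusted p = 7.83e-07). The rest of the 12 were the adhesion receptor gene Adgrg1 (-3.89), the tubulin gene Tubb3 (-3.17), the collectin gene Colec10 (-5.05) and the unnamed coding gene Gm13889 (-3.78).

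**Figure D2:**
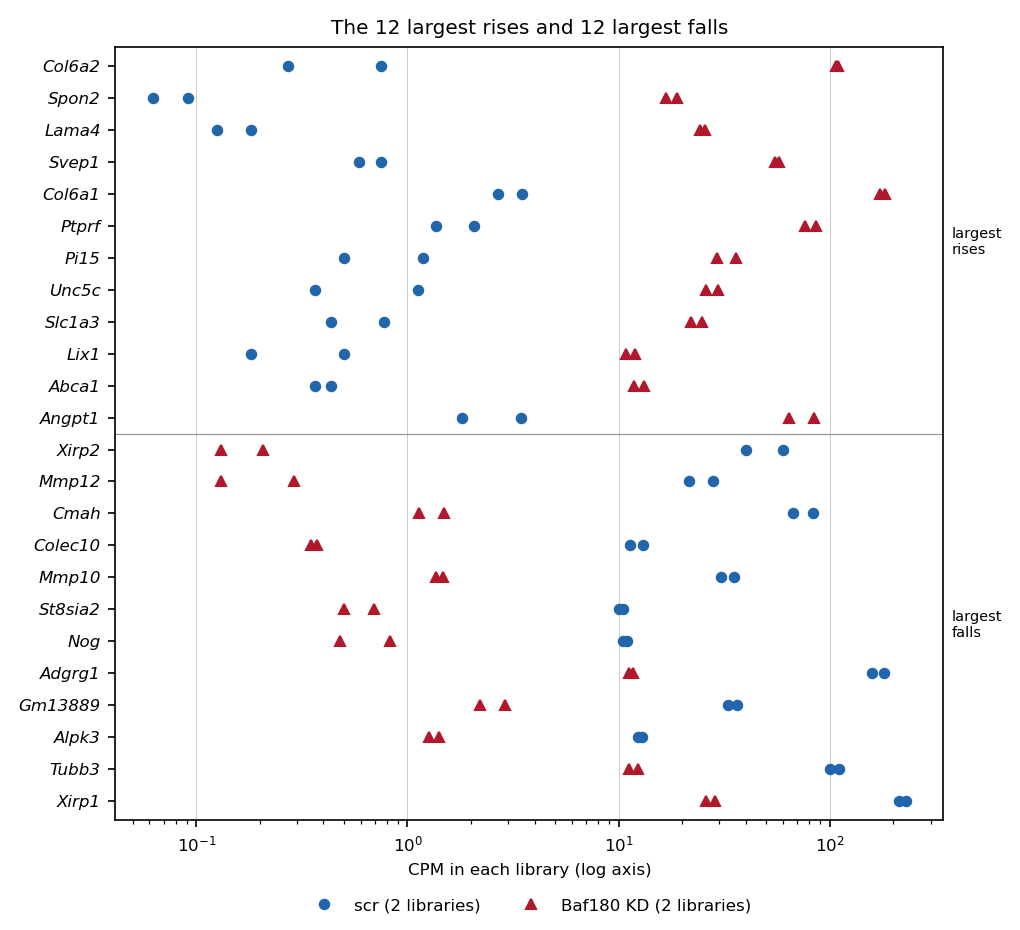
CPM in each untreated library (log axis) for the 12 largest rises and the 12 largest falls among called protein-coding genes with a mean of at least 10 CPM in the higher group. The libraries of each group lie together and the groups do not overlap for any of the 24 genes, which the choice of genes required.

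The same genes were then read in libraries that the untreated comparison did not use. With Cu and with Zn, all 24 genes differed between Baf180 KD and scr in the untreated direction, for instance Col6a2 by 7.78 and 8.36, and Xirp2 by -8.31 and -8.05 on the log2 scale. Over all 12 scr and Baf180 KD libraries, Col6a2 reached at most 0.765 CPM in scr and at least 76.8 CPM in the KD. Of the 3178 genes higher in the untreated Baf180 KD and tested also with Cu, 51.3% were higher there too, which is 76.5% of the genes called higher with Cu. For the 2848 lower genes the shares were 32.0% and 56.8%. With Zn, 57.0% of 3154 higher and 44.2% of 2841 lower genes were called in the same direction (48.8% and 33.9% of the Zn calls), and 675 and 272 were called in the opposite one. The background in those comparisons was 24.9% of genes called in the Cu libraries (14.2% up, 10.7% down) and 49.9% in the Zn libraries (24.9% in each direction).

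The largest rises over scr were shared by the other KD lines, and the Baf180 KD was intermediate among them. All 12 of the largest rises were lower in the untreated Baf180 KD than in the untreated Baf250a KD, and all 12 were higher than in the untreated Brd9 KD, against a background of 33.9% of genes called for Baf250a (18.3% higher and 15.7% lower in the Baf180 KD) and 14.6% for Brd9 (9.42% higher and 5.19% lower). Col6a2 averaged 109 CPM in the untreated Baf180 KD, 215 CPM in the Baf250a KD and 42.1 CPM in the Brd9 KD, against 0.522 CPM in scr. In all 6 scr libraries the gene was below 1 CPM, and in all 18 KD libraries it was above 29 CPM. Against the same scr libraries, which all 3 comparisons share, Col6a2 differed by 7.81 in the Baf180 KD, 8.77 in the Baf250a KD and 6.43 in the Brd9 KD. All 12 of the largest rises had a positive log2 fold change over these scr libraries in the Baf250a KD and in the Brd9 KD. A level above scr was therefore not particular to the Baf180 KD.

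Of the largest falls, 11 were lower in the Baf180 KD than in the Brd9 KD, and Alpk3 did not pass the test (adjusted p = 0.863). Against the Baf250a KD, 11 could be tested, of which 3 were lower (Xirp2, Cmah and Nog), 4 higher (Mmp10, Adgrg1, Gm13889 and Xirp1) and 4 not called. Xirp2 averaged 0.17 CPM in the untreated Baf180 KD, 0.609 CPM in the Baf250a KD, 22.2 CPM in the Brd9 KD and 51.4 CPM in scr. Against the shared scr libraries, all 12 of the largest falls had a negative log2 fold change in the Baf250a KD. In the Brd9 KD 10 were negative and 2 positive.

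**Figure D3:**
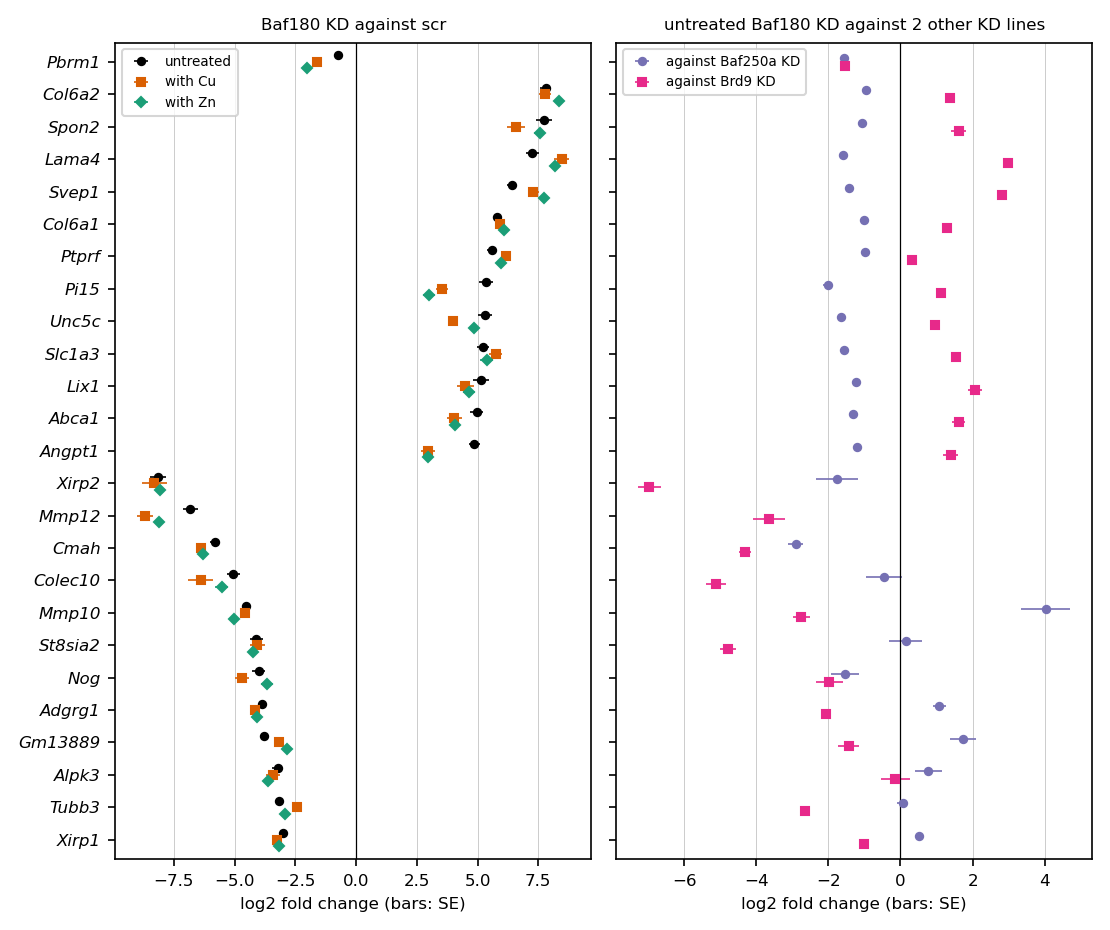
Log2 fold change with its SE for Pbrm1 and the 24 genes with the largest changes. The left panel gives Baf180 KD against scr in untreated, Cu and Zn libraries, where each gene keeps its direction, and the right panel gives untreated Baf180 KD against the untreated Baf250a and Brd9 KD lines, where the 12 rises are negative against Baf250a and positive against Brd9.

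Matrix and adhesion genes shifted beyond the leading ones. Of 28 tested collagen genes 13 rose and 4 fell (median 0.35), and of 40 other matrix proteins and proteoglycans 25 rose and 5 fell (median 0.76). Col1a1, the main chain of collagen I, went from 42.6 and 43.2 CPM to 351 and 374 CPM (log2 fold change 3.08 ± 0.11 SE, adjusted p = 7.21e-09), and Prelp, a small leucine-rich proteoglycan, from 1 count over both scr libraries to 6.49 and 5.1 CPM. Fn1, fibronectin, was the most abundant transcript of the group and fell from 17700 and 18800 CPM to 10200 and 10200 CPM (log2 fold change -0.84 ± 0.15 SE, adjusted p = 0.000995). Loxl2, a collagen cross-linking oxidase, fell by 1.65 and Col7a1 by 1.51 on the log2 scale. The summed level of the matrix list therefore stood at 26700 and 26400 CPM in the KD against 28700 and 30400 CPM in scr, although more of its members rose.

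Among 27 matrix proteases and inhibitors 17 rose and 7 fell. The gelatinase gene Mmp2 rose from 24.8 and 27 CPM to 139 and 131 CPM (log2 fold change 2.38 ± 0.11 SE, adjusted p = 3.96e-08) and the procollagen peptidase gene Adamts2 from 2.56 and 3.04 CPM to 46.6 and 42.2 CPM (log2 fold change 3.97 ± 0.16 SE, adjusted p = 1.39e-08), while the membrane protease gene Mmp15 fell from 147 and 167 CPM to 24.7 and 24.6 CPM (log2 fold change -2.67 ± 0.12 SE, adjusted p = 2.11e-08). Of 18 integrins 11 rose and 3 fell. Itga11, a collagen-binding integrin, was at 8.89 and 10.3 CPM against 0.187 and 0.182 CPM, and Itga7, the laminin-binding integrin of muscle, fell from 917 and 1080 CPM to 417 and 437 CPM (log2 fold change -1.22 ± 0.12 SE, adjusted p = 9.8e-06). Of 42 cadherins and protocadherins 22 rose and 4 fell, among them Cdh11 (2.79) and Pcdh7 (2.76) on one side and Pcdh1 (-1.56) and the muscle cadherin Cdh15 (-0.55) on the other. The higher count of the cadherin list was 9 without the second Baf180 KD library, and that of the integrin list 7.

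Markers of other cell types were read beside these genes. Of 5 fibroblast markers 3 were tested and all 3 were higher: Col1a1, Pdgfra (from 5.42 and 4.54 CPM to 24.6 and 23.7 CPM) and Dcn (from 2.31 and 1.64 CPM to 11.5 and 9.66 CPM). Their list summed to 387 and 407 CPM in the KD and to 50.4 and 49.3 CPM in scr. Of 8 myoblast markers 2 rose and 5 fell (summed 2430 and 2310 CPM against 4400 and 4930 CPM), and Myod1 was expressed in all 4 libraries. Neural markers, of which Tubb3 and Nes were tested, both fell and summed to 1300 and 1360 CPM against 2400 and 2510 CPM. Differentiated muscle markers rose in 3 of 6 cases, adipocyte markers in 1 of 2, the single tested chondrocyte marker rose and the single osteoblast marker did not pass the test, and of 4 smooth muscle markers 1 fell. Endothelial markers summed to 1.31 and 0.788 CPM in the KD against 4.99 and 6.04 CPM in scr, leukocyte markers to 5.84 and 5.56 CPM against 5.49 and 5.23 CPM, and epithelial markers to at most 0.249 CPM in any of the 4 libraries. The part of other cell types in the matrix genes was not tested.

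Secreted signals and their receptors rose more often than they fell. Among 36 FGF, PDGF, HGF and EGF ligands and receptors 23 rose and 2 fell (median 0.86), with Hgf, which activates satellite cells, going from 2 and 1.54 CPM to 22.3 and 25.3 CPM (log2 fold change 3.77 ± 0.2 SE, adjusted p = 8.54e-08) and Fgf7 from 2.87 and 1.14 CPM to 21.9 and 24.9 CPM. Pdgfc fell by 0.68 on the log2 scale. Of 36 TGF-beta and BMP genes 19 rose and 3 fell. After GC and length correction 17 of them rose and 6 fell, and the median went from 0.53 to 0.25. Bmp4 rose from 2.43 and 2.09 CPM to 50.6 and 45.7 CPM (log2 fold change 4.42 ± 0.17 SE, adjusted p = 9.93e-09) and the BMP antagonist Grem1 from 102 and 61.4 CPM to 564 and 662 CPM (log2 fold change 2.92 ± 0.2 SE, adjusted p = 5.9e-07), opposite to the antagonist Nog. Tgfb1 rose by 0.96 and the stress cytokine Gdf15 fell by 1.40 on the log2 scale.

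Of 36 Wnt ligands, receptors and antagonists 27 rose and 4 fell (median 0.81). Among members of at least 5 CPM the largest rises were in 2 inhibitors of the pathway, Nkd2 (from 0.187 and 0.182 CPM to 8.58 and 9.66 CPM) and Dkk2 (from 0.873 and 0.772 CPM to 6.71 and 6.97 CPM), and Wnt4 fell from 10.7 and 14.3 CPM to 5.45 and 5.85 CPM. Among 14 IGF genes 8 rose and 5 fell. Igf1 was at 3.83 and 5.81 CPM against 0.0623 and 0.273 CPM and Igfbp3 at 7.75 and 6.06 CPM against 0 and 0.182 CPM, while the abundant binding protein gene Igfbp2 fell from 1790 and 2200 CPM to 475 and 495 CPM (log2 fold change -2.04 ± 0.13 SE, adjusted p = 3.56e-07) and Pappa, a protease of IGF binding proteins, from 324 and 274 CPM to 91.4 and 105 CPM. In the Notch list 6 of 15 rose and 2 fell, with Notch3 (1.26) and its target Heyl (1.88) higher and Hey1 (-2.47) lower. The Notch share called was 53.3%, against 41.0% over all tested genes. Of 19 YAP and TEAD targets 10 rose, among them F3 (3.67) and Asap1 (1.73), and 2 fell, Ccn2 (-1.27) and Ankrd1 (-0.68). Guidance genes split more evenly, with 23 of 51 higher, such as the ephrin receptor gene Epha4 (3.72), and 11 lower, such as Sema3c (-1.95).

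Chemokine, cytokine and NF-kB genes were among the lists with the highest share of rises, 23 of 31, with 4 falls and a median of 1.5. Cxcl12, a chemokine of stromal cells, rose from 18.6 and 19 CPM to 206 and 185 CPM (log2 fold change 3.37 ± 0.12 SE, adjusted p = 6.45e-09) and the monocyte chemokine Ccl2 from 4.43 and 3.41 CPM to 19.4 and 15.9 CPM. Cxcl10, an interferon-driven chemokine, fell from 6.3 and 5.54 CPM to 2.35 and 1.04 CPM, and the NF-kB inhibitor gene Tnfaip3 fell by 0.74 on the log2 scale. Interferon-stimulated genes had no common direction, with 8 of 44 higher and 12 lower. Their share called, 45.5%, was near the 41.0% over all tested genes. Isg15, a ubiquitin-like antiviral protein, fell from 12 and 14.9 CPM to 2.22 and 1.91 CPM (log2 fold change -2.71 ± 0.22 SE, adjusted p = 2.25e-06) and Ifit1 from 20.3 and 15.6 CPM to 9.41 and 6.14 CPM, while Dtx3l rose by 1.4. In antigen presentation 7 of 13 rose, led by H2-T23 (2.1) and the peptide transporter gene Tap2 (2.04), although H2 genes share sequence and their reads may be split between copies. Of 21 secreted genes linked to senescence 16 rose and 5 fell, a list that shares members with the chemokine, growth factor and protease lists.

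Muscle genes moved in both directions. Myod1, the myoblast determination factor, was at 126 and 112 CPM against 108 and 113 CPM and did not pass the test (adjusted p = 0.453). Myog, the factor of the step into differentiation, rose 5.12-fold from 6.92 and 5.86 CPM to 34.6 and 30.6 CPM (log2 fold change 2.36 ± 0.16 SE, adjusted p = 4.87e-07), and Myf5, a factor of proliferating myoblasts, fell from 146 and 112 CPM to 55.3 and 51.4 CPM (log2 fold change -1.27 ± 0.13 SE, adjusted p = 2.14e-05). Of 16 tested genes in the list of myogenic transcription factors 10 rose and 1, Myf5, fell. The 10 rises include Id2, which blocks such factors and went from 12.5 and 10.1 CPM to 34.2 and 28.4 CPM (log2 fold change 1.48 ± 0.16 SE, adjusted p = 2.5e-05).

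Sarcomere, contraction and fusion genes split, with 18 of 37 higher and 10 lower. Embryonic myosin Myh3 rose from 6.42 and 4.86 CPM to 35.6 and 40.2 CPM (log2 fold change 2.76 ± 0.17 SE, adjusted p = 2.39e-07), and the fusion gene Mymk from 3.62 and 4.68 CPM to 12.3 and 9.25 CPM. Falls were seen in titin, Ttn, from 3670 and 3160 CPM to 637 and 1130 CPM (log2 fold change -1.95 ± 0.22 SE, adjusted p = 3.3e-05), desmin, Des, from 2170 and 2460 CPM to 1110 and 1040 CPM (log2 fold change -1.11 ± 0.12 SE, adjusted p = 2.76e-05), Actn3 from 357 and 390 CPM to 110 and 110 CPM and the acetylcholine receptor gene Chrna1 from 634 and 716 CPM to 306 and 268 CPM. The list therefore summed to 3700 and 4090 CPM in the KD and 8970 and 9130 CPM in scr. Myog was higher in the untreated Baf180 KD than in the Baf250a KD (1.79 ± 0.14 SE, adjusted p = 3.96e-06) and the Brd9 KD (3.54 ± 0.19 SE, adjusted p = 2.41e-05). Sarcomere genes differed in the same way: of 37 tested, 26 were higher and 1 lower against Baf250a, and 27 higher and 3 lower against Brd9. Over all tested genes 18.3% were higher and 15.7% lower against Baf250a, and 9.42% and 5.19% against Brd9. Of 16 smooth muscle and SRF target genes 4 rose and 3 fell, 43.8% called against 41.0% over all tested genes.

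**Figure D4:**
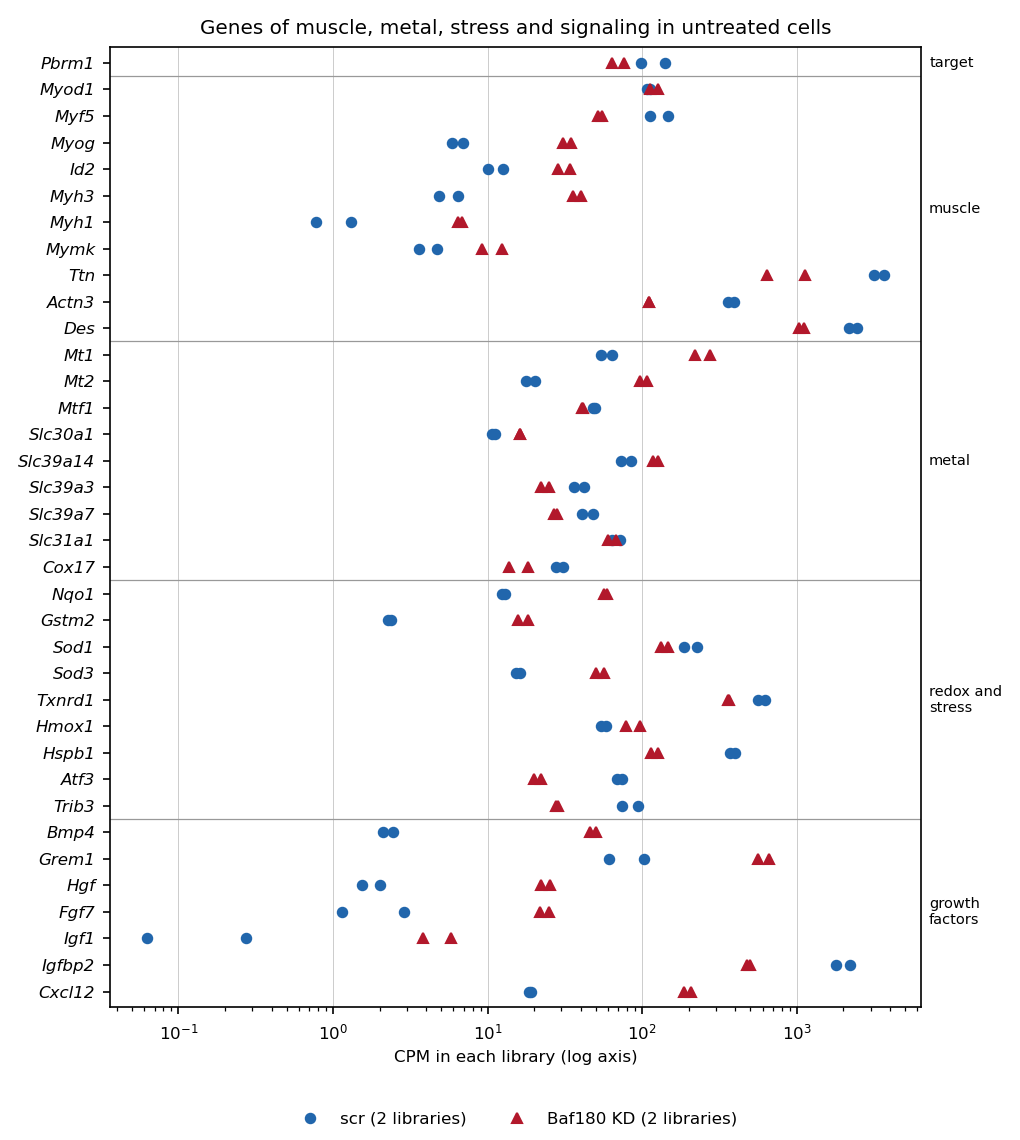
CPM in each untreated library (log axis) for Pbrm1 and for genes of muscle, metal handling, redox and stress, and growth factors. Myog, Mt1, Mt2 and Nqo1 lie higher in both Baf180 KD libraries, Ttn, Des, Hspb1 and Igfbp2 lie higher in both scr libraries, and Myod1 and Slc31a1 overlap.

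Metallothionein genes were higher in the Baf180 KD although no metal had been added. Metallothioneins are small cysteine-rich proteins that bind Zn and Cu, and their genes are switched on by the zinc-sensing factor MTF1 through metal response elements. Mt1 (chr8:94179082-94180327) was at 274 and 220 CPM in the Baf180 KD against 54 and 63.7 CPM in scr (log2 fold change 2.07 ± 0.14 SE, adjusted p = 4.41e-07). Mt2, next to it at chr8:94172664-94173568, was at 107 and 97 CPM against 17.8 and 20.3 CPM (log2 fold change 2.42 ± 0.12 SE, adjusted p = 6.59e-08). Both genes were 4.19-fold and 5.34-fold higher, and Mtf1 itself stood at 40.6 and 41.4 CPM against 49.8 and 47.7 CPM (adjusted p = 0.0886, or 0.0024 and a log2 fold change of -0.42 after GC and length correction).

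The promoters of both genes are shown because the genes moved together, from RefSeq on the + strand of GRCm38.p6, 250 bases before to 50 after the start, with matches to the core of the metal response element (TGCACNC or TGCGCNC, on either strand) in capitals.
Mt1, chr8:94178839-94179138: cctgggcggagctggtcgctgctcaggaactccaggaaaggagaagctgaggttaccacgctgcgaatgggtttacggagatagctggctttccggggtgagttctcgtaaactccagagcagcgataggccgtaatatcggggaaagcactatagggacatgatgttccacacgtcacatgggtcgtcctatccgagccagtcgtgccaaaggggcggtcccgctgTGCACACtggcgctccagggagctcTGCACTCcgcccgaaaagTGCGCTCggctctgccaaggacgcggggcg
Mt2, chr8:94172368-94172667: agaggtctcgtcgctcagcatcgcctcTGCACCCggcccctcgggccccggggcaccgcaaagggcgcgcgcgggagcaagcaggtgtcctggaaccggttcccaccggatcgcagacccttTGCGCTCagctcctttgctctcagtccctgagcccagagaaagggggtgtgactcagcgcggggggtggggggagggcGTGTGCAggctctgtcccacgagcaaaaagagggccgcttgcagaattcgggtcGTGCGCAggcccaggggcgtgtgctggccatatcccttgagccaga
The Mt1 promoter held 3 matches and the Mt2 promoter 4, and none overlapped another. At least 1 match was found in 25.7% of all promoters of this length and at least 3 in 1.31%.

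The metallothionein difference was also present in the metal-treated libraries. With Cu, Mt1 differed by 1.97 ± 0.18 SE and Mt2 by 2.22 ± 0.13 SE. With Zn the differences were 0.98 ± 0.13 and 0.76 ± 0.08 SE, with scr itself at 284 to 312 CPM for Mt1. Untreated Baf180 KD cells held 218 to 282 CPM of Mt1 in the scaling over 24 libraries, below every one of these Zn-treated scr libraries. Mt1 and Mt2 did not pass the test between the untreated Baf180 and Baf250a KD lines (-0.08 ± 0.1 and -0.04 ± 0.08 SE), and both were higher than in the Brd9 KD (0.66 and 0.73). Over the same untreated scr libraries, both were also higher in the Baf250a KD (2.15 and 2.46) and in the Brd9 KD (1.42 and 1.7). Metallothionein levels above scr were therefore not particular to the Baf180 KD.

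Zinc transporters showed smaller differences, with 4 of 16 higher and 3 lower. The share called, 43.8%, was near the 41.0% over all tested genes, and the list median was 0.02. The zinc importer gene Slc39a14 rose from 73.4 and 84.9 CPM to 127 and 117 CPM (log2 fold change 0.62 ± 0.11 SE, adjusted p = 0.00115) and the exporter gene Slc30a1, itself an MTF1 target, from 10.6 and 11.1 CPM to 16.2 and 16.1 CPM (log2 fold change 0.57 ± 0.15 SE, adjusted p = 0.00977), a call that was lost without either Baf180 KD library (adjusted p = 0.0933 and 0.0881). The importer gene Slc39a3 fell from 36.2 and 42.3 CPM to 25 and 22.1 CPM and Slc39a7, which moves zinc out of the endoplasmic reticulum, from 40.8 and 47.7 CPM to 27 and 28 CPM. Of 26 genes of a copper list 7 rose and 10 fell, and 2 of the rises were Mt1 and Mt2, which the list holds beside transporters, chaperones and cuproenzymes. The copper importer gene Slc31a1 was at 67.5 and 60.1 CPM against 64.1 and 71.5 CPM (adjusted p = 0.564), and Cox17, which hands copper to cytochrome oxidase, fell from 30.7 and 27.7 CPM to 13.8 and 18.3 CPM (log2 fold change -0.86 ± 0.16 SE, adjusted p = 0.00111). Of 13 iron-handling genes 2 rose and 3 fell, 38.5% called against 41.0% over all tested genes. None fell without the second scr library or either Baf180 KD library, and after GC and length correction 4 rose and 6 fell.

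Redox genes had no single direction. Of 30 NRF2-linked genes 9 rose and 7 fell, 53.3% called against 41.0% over all tested genes. Nqo1, a quinone reductase and standard NRF2 target, rose from 12.3 and 12.9 CPM to 59.4 and 56.9 CPM (log2 fold change 2.2 ± 0.12 SE, adjusted p = 1.27e-07) and the glutathione transferase gene Gstm2 from 2.37 and 2.27 CPM to 18.3 and 15.8 CPM, whereas Gsta4 (-0.91) and Taldo1 (-0.86) fell. Hmox1, heme oxygenase, rose from 54.4 and 58.6 CPM to 96.7 and 78.6 CPM, with an adjusted p of 0.073 without the first Baf180 KD library. Nfe2l2, which encodes NRF2, rose by 0.37 (adjusted p = 0.0218, and 0.39 without the first Baf180 KD library). In the superoxide, peroxide and thioredoxin list 5 of 21 rose and 10 fell, with the secreted dismutase Sod3 (1.76) and selenium carrier Selenop (4.0) higher and the cytosolic enzymes Sod1 (-0.57) and Txnrd1 (-0.71) lower. The Sod1 call was lost without the second Baf180 KD library (adjusted p = 0.0523).

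Stress-response genes fell more often than they rose. Of 34 ATF4 and unfolded protein response genes 16 fell and 4 rose, and after GC and length correction 21 fell and 4 rose. The stress factor Atf3 fell from 68.6 and 73.8 CPM to 20 and 22.2 CPM (log2 fold change -1.75 ± 0.12 SE, adjusted p = 5.74e-07) and Trib3, a pseudokinase induced by ATF4, from 73.8 and 94.1 CPM to 28.5 and 27.8 CPM (log2 fold change -1.58 ± 0.13 SE, adjusted p = 3.46e-06). Of 22 heat shock chaperones 8 fell and 3 rose, with the small chaperones Hspb1 (from 369 and 398 CPM to 126 and 114 CPM) and Hspb8 (from 199 and 225 CPM to 75.8 and 69.6 CPM) lowest and Hspa1b (1.06) highest. Of 30 p53-linked genes 13 fell, among them Gdf15 (-1.4) and Eda2r (-1.09), and 8 rose, such as Sesn1 (0.7). Without the second Baf180 KD library 7 of the p53 list fell and 4 rose, and 4 heat shock genes fell.

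Lipid and energy genes differed in direction by pathway. Of 26 sterol synthesis and SREBP2 genes 21 rose and none fell (median 0.68), and leaving out 1 library gave 15 to 21 rises. The list also holds Abca1, named above, which exports cholesterol. Srebf2, which encodes the SREBP2 factor, stood at 537 and 519 CPM against 443 and 505 CPM (adjusted p = 0.279). In the libraries grown with Cu 23 of these genes were higher and with Zn all 26. Of 23 glycolysis genes 15 fell and 1 rose (median -0.46, and again 15 falls after GC and length correction), among them the glucose transporter gene Slc2a1 (from 448 and 491 CPM to 225 and 211 CPM) and the phosphofructokinase gene Pfkp (from 204 and 233 CPM to 93 and 93.9 CPM). The glycolysis list had no such shift with metal. In the Cu libraries 5 were lower and 2 higher (median -0.01), and in the Zn libraries 8 were lower and 9 higher (median 0.06).

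Nuclear genes of oxidative phosphorylation fell in 56 of 80 cases and rose in 1, Uqcrb (0.75, adjusted p = 0.0737 without the second Baf180 KD library), with a median of -0.56. After GC and length correction 52 fell and the median was -0.42. The ATP synthase genes Atp5k (from 29 and 43.7 CPM to 12.4 and 12.9 CPM) and Atp5e (from 77.6 and 120 CPM to 36.3 and 41.3 CPM) were among the falls. In the mitochondrial genome 6 of 10 tested genes rose and none fell, for instance mt-Nd5 from 1060 and 921 CPM to 2360 and 1980 CPM (log2 fold change 1.13 ± 0.13 SE, adjusted p = 4.87e-05) and mt-Co1 from 3650 and 3440 CPM to 6430 and 5250 CPM (log2 fold change 0.72 ± 0.14 SE, adjusted p = 0.00204), and 4 rose after the correction. This rise was not seen with metal. In the Cu libraries none of the 10 was higher and 1 was lower (median -0.05), and in the Zn libraries none was higher and 9 were lower (median -1.17). Cytosolic ribosomal protein genes fell in 60 of 84 cases (45 after the correction) and mitochondrial ribosomal protein genes in 38 of 77 (42 after it). Without the second Baf180 KD library the falls were 35 in oxidative phosphorylation, 33 in the cytosolic and 15 in the mitochondrial ribosome. These lists hold short transcripts, and the second scr library was the highest for Rpl11 (194 and 282 CPM in scr against 117 and 111 CPM) and Rps21 (111 and 166 CPM against 56.5 and 61 CPM). Fewer of these genes were lower in the metal-treated libraries, a contrast that was not tested: in Cu libraries 20 oxidative phosphorylation genes and 4 cytosolic ribosomal protein genes were lower. In Zn libraries 28 of the former and 9 of the latter were lower, while 9 and 28 were higher.

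Cell cycle genes had no common direction. Of 48 DNA replication and G1/S genes 5 rose and 11 fell, and of 54 G2 and mitosis genes 16 rose and 11 fell. After GC and length correction 3 rose and 17 fell in the first list, and in the second the balance turned, with 8 higher and 16 lower. Without the second Baf180 KD library the counts were 2 higher and 3 lower, and 1 higher and 6 lower. Ccnd1, cyclin D1, rose from 176 and 190 CPM to 427 and 371 CPM (log2 fold change 1.12 ± 0.11 SE, adjusted p = 1.35e-05) and Ccnd2, cyclin D2, fell from 549 and 549 CPM to 307 and 298 CPM (log2 fold change -0.86 ± 0.1 SE, adjusted p = 5.61e-05). Ccne2 rose by 1.17 and Ccne1 fell by 0.75 on the log2 scale, and the mitotic genes Cdc20 (-0.7) and Ube2c (-0.62) fell. The long transcripts Cenpf (1.13), Brca2 (1.05) and Atm (0.81) rose, calls that were lost without the second Baf180 KD library (adjusted p = 0.0871, 0.0759 and 0.0753). Of 41 DNA repair genes 10 rose and 6 fell, but 5 rose and 8 fell after GC and length correction, and none rose and 3 fell without the second Baf180 KD library. The share of DNA repair genes called, 39.0%, was near the 41.0% over all tested genes. Of 13 cyclin D and CDK inhibitor genes 5 rose and 4 fell. Replication-dependent histone genes fell in 35 of 56 cases with none higher, but after GC and length correction 12 fell and 6 rose. Histone genes are near-identical copies, only uniquely placed reads were counted, and in the Cu libraries 25 of them were higher in the Baf180 KD and none lower.

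Patterning and signal-dependent transcription factors rose more often than they fell. Of 22 tested Hox genes 11 rose and none fell (median 0.71), with Hoxc6 from 13.4 and 11.5 CPM to 23.9 and 27.9 CPM (log2 fold change 1.06 ± 0.15 SE, adjusted p = 0.000209) and Hoxa5 from 2.31 and 1.82 CPM to 5.45 and 6.39 CPM, and 5 rose without the second Baf180 KD library. Of 39 homeobox and limb factors 23 rose, among them Gata2 (1.61) and Osr1 (1.91), and 4 fell, Ebf1 (-0.53) among them. Of 30 nuclear receptors 19 rose and 4 fell. The vitamin D receptor gene Vdr rose by 1.84 on the log2 scale, and Esrra, a regulator of mitochondrial genes, fell from 71.7 and 84.4 CPM to 46.8 and 45.5 CPM (log2 fold change -0.76 ± 0.12 SE, adjusted p = 0.000391).

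Immediate early and AP-1 genes rose in 13 of 25 cases and fell in 7. The growth-factor-induced factors Egr2 (from 0.748 and 0.5 CPM to 15.3 and 15.6 CPM, log2 fold change 4.66 ± 0.25 SE, adjusted p = 1.02e-07) and Egr3 (from 2.18 and 2.18 CPM to 18.5 and 21.3 CPM) rose, and Jund fell from 315 and 393 CPM to 161 and 156 CPM (log2 fold change -1.16 ± 0.12 SE, adjusted p = 1.99e-05). Among 50 splicing genes 8 rose and 7 fell, and after GC and length correction 2 rose and 19 fell. Before the correction 30.0% of the splicing list was called, below the 41.0% over all tested genes. Mbnl1, a splicing regulator of muscle, rose from 201 and 138 CPM to 415 and 464 CPM (log2 fold change 1.37 ± 0.16 SE, adjusted p = 4.1e-05). Of 17 imprinted genes 9 rose, such as Snrpn (2.05), and 5 fell, such as Igf2r (-0.93) and the noncoding RNA H19 (-0.51). After GC and length correction 8 of them rose and 6 fell, and the median went from 0.48 to 0.09.

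**Figure D5:**
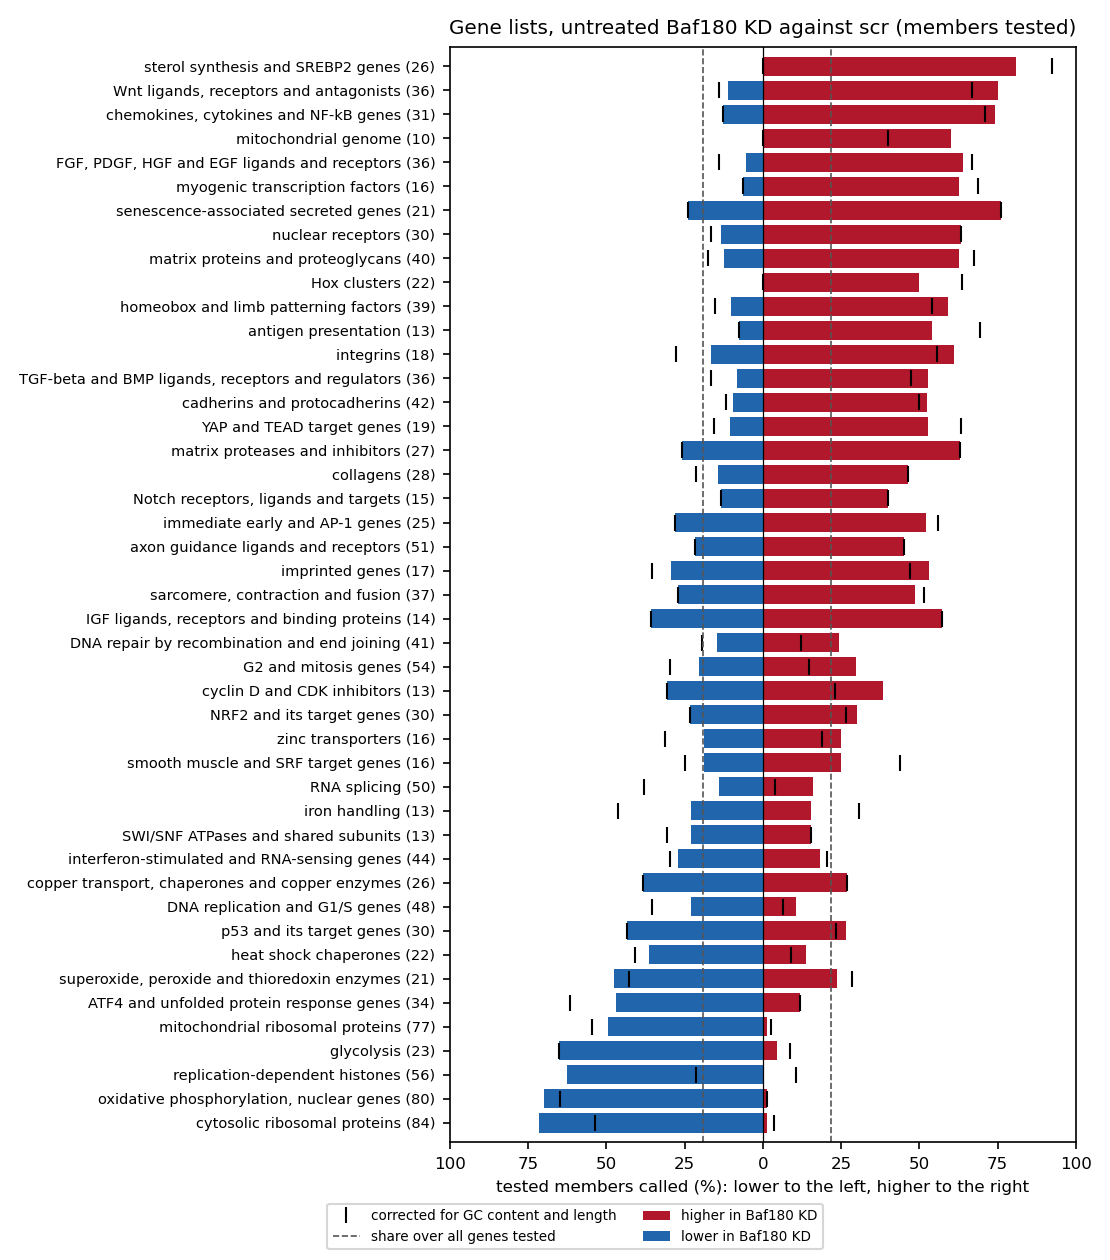
Share of tested members called higher (right) or lower (left) in the untreated Baf180 KD for each gene list with at least 10 tested members (number in parentheses), with black ticks for the same shares after GC and length correction and dashed lines at the shares over all tested genes, 21.7% and 19.3%. Sterol, senescence-associated, Wnt and chemokine lists reach furthest right, and ribosomal, oxidative phosphorylation, histone and glycolysis lists furthest left, where the histone ticks lie far inside the bar.

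Several of these lists also differed in the direct tests against the other KD lines. Against the untreated Baf250a KD, 18.3% of all tested genes were higher and 15.7% lower in the untreated Baf180 KD. There 24 of 38 Wnt genes, 21 of 33 collagens and 29 of 46 matrix genes were lower, and 2, 3 and 7 were higher. In the other direction, 51 of 54 G2 and mitosis genes and 37 of 48 replication genes were higher with none lower. Against the untreated Brd9 KD, 9.42% of all tested genes were higher and 5.19% lower. There 17 of 36 Wnt genes, 25 of 41 matrix genes and 22 of 32 chemokine genes were higher, and 1, 3 and 1 were lower. Of 54 G2 and mitosis genes 16 were lower and none higher. Of 48 replication genes 3 were lower, near the share over all genes, and none was higher. Sterol genes were more often higher than lower in the Baf180 KD against both, 16 of 26 against Baf250a (1 lower) and 12 of 26 against Brd9 (none lower).

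By chromosome, the median log2 fold change ran from -0.17 on chromosome 4 to 0.33 on chromosome 14, which carries Pbrm1, and 0.28 on chromosome 1. On chromosome 14, 41.1% of 487 tested genes were higher and 7.19% lower in the untreated Baf180 KD, and on chromosome 4 the shares were 16.6% and 32.4% of 874 genes. The chromosome 14 median was 0.24 after GC and length correction, 0.20 in the libraries grown with Cu and 0.16 with Zn.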

How the data were processed

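RNA-seq of ribosomal-RNA-depleted, strand-specific libraries was analysed. Per the study's methods, the authors aligned reads to mm10 with STAR, discarded multi-mapping reads and assigned fragments to genes with featureCounts, and they deposited raw counts per gene for 24 libraries. Deposited tables of the authors' own DESeq2 comparisons (fold changes and p-values) were not used. Groups came from sample titles, since the treatment tag contradicts them.

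Genes were filtered (filterByExpr), scaled (TMM) and tested with edgeR 4.0.16 (quasi-likelihood, two-sided) in R 4.3.3 on the 4 libraries. P-values were adjusted by Benjamini-Hochberg over all tested genes and called under 0.05, and SE was the log2 fold change divided by the root of F. The methods describe independent biological replicates. Total counts limit precision, and counting intervals (95%) cover counting error only. GENCODE M21 matched 53701 of 55291 symbols, and promoters came from RefSeq. On simulated data, the fit called 79.1% of 196 genes given a 2-fold change among 14515 genes, with 0 of wrong sign and 18 unchanged genes called. The simulation held no GC or length trend and no difference between lines beyond the changed genes. It therefore does not give the share of false calls in the real comparison.

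The members and lists were chosen with earlier results of these data known. Named genes were the PBAF subunits, the 12 largest rises and falls among called protein-coding genes of at least 10 CPM in the higher group without overlap, the 2 largest rises and falls per list at 5 CPM or more, every tested member of lists of up to 10, and defining members. Some genes this rule selects are not reported here. Alternatives were DESeq2 1.42.0, other scaling, filters, libraries in the fit, GC and length splines, a replicate block, thinned counts, a fold minimum of 1.5 and each library left out.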

Additional observations from a re-analysis of the deposited data

Results flagged for a closer look

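For several genes the log2 fold change of Baf180 KD against scr had opposite signs in untreated and in metal-treated libraries, with no overlap of the groups on either side. The genes passed the test in untreated libraries, but not all passed with metal, and the difference between conditions was not tested by an interaction term. Groups of 2 libraries were not examined for outlying samples.

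Genes that passed in both conditions are given first, as single genes and not as classes. The mitochondrial transcripts mt-Nd5 and mt-Co1 were at 1.13 and 0.72 on the log2 scale in untreated cells and at -0.86 and -0.68 with Zn. Atp5e was at -1.35 untreated and 0.21 with Zn, and Uqcrb at 0.75 untreated, -0.63 with Cu and -0.34 with Zn. The ribosomal protein gene Rpl11 was at -1.06 and 0.38 with Zn. Ccne2 (1.17 and -1.3), Cenpf (1.13 and -0.73), Brca2 (1.05 and -0.67) and Atm (0.81 and -0.5) were higher in the untreated KD and lower with Zn, the untreated calls of the last 3 being lost without the second Baf180 KD library. The splicing regulator Mbnl2 was at 0.85 and -0.66 with Zn. Slc39a7, the zinc transporter of the endoplasmic reticulum, was at -0.69 untreated and 0.54 with Zn.

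The other genes did not pass the edgeR test with metal. Atp5k was at -1.53 untreated and 0.27 with Zn (adjusted p = 0.0984), and Snrpb at -0.68 and 0.04 (adjusted p = 0.574). Sod1 was at -0.57 untreated, 0.14 with Cu (adjusted p = 0.477) and 0.14 with Zn (adjusted p = 0.137). Wnt4 was at -1.15 untreated and 0.2 with Cu (adjusted p = 0.477).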

How the results depend on the processing

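The count of called genes, 6087, was 3025 without the second Baf180 KD library and 7377 without the first scr library, the lowest and highest with 1 library left out, where the lone sample was assumed to vary like the other group. A fold minimum of 1.5 gave 3846 and DESeq2 gave 4931. Other scaling, filters, thinning, and fits with 12 or 24 libraries gave 5800 to 6881. Replicate numbers are shared by all groups but only as numbers: deviations of same-numbered libraries correlated at -0.195. With the replicate block 5237 genes were called for the untreated comparison, and with a crossed pairing, added after seeing the data, 8018. Against the Brd9 KD the replicate block gave 5508 calls in place of 2174, and the cause was not tested. Of 155 called genes examined one by one besides Pbrm1, 141 were called under every other alternative run. That count leaves aside the fold minimum of 1.5 and the fits with 1 library left out, where some of these genes were lost. H19 (adjusted p = 0.0733) and Nfe2l2 (0.0541) were not called with the replicate block. After GC and length correction Brd7, Slc31a1, Myod1 and Mtf1 were called. Myod1, not called, had a log2 fold change of -0.03 to 0.17 with 1 library left out, and Smarca4, also not called, -0.07 to 0, the signs turning without the first Baf180 KD library (-0.03) and the second scr library (0). Differences in genes with few counts were not detectable at this depth.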
